A study of Mus musculus with 6 samples.

Results

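Hydroxysteroid dehydrogenases and a steroid reductase were followed in livers of conditional Keap1 knockout mice and of controls that keep a wild-type Keap1 allele. The genes are Hsd3b5, Hsd3b2, Hsd3b3, Hsd11b1, Hsd17b2, Hsd17b6, Hsd17b10, Hsd17b11, Hsd17b12 and Srd5a1. Members were all probe sets whose symbol in the platform annotation is, or includes, a name from this list. That gave 16 of 45101 probe sets, covering 9 of the 10 genes, while Srd5a1 was not analysed here. The members were chosen by gene family around the difference of Hsd3b5 in signal between the same 6 mice, with the results of these arrays known. All differences of the listed genes between the groups are therefore descriptions, given with their error and without a test.

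Livers came from 6 male mice aged 9 weeks, 1 mouse per array. In the 3 conditional knockouts, Alb-Cre:Keap1(flox/-), a floxed Keap1 allele lies opposite a null allele, and Cre is driven by the albumin promoter, which is active in hepatocytes. The 3 genetic controls, Alb-Cre:Keap1(flox/+), carry the same Cre and a floxed allele opposite a wild-type allele. Cre can thus delete the floxed allele in control hepatocytes too, which keep the wild-type allele. The contrast is therefore not with livers in which every Keap1 allele is intact. All 6 mice had received only vehicle, 10% DMSO and 10% Cremophor-EL in 80% PBS. The null allele is present in every cell of the knockouts and is not limited to cells with Cre. Mice are called by the replicate numbers of the labels, knockouts 3, 4 and 5 and controls 1, 2 and 3.

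Hydroxysteroid dehydrogenases move hydrogen between steroid alcohols and ketones, and so turn hormones on or off in the tissue that meets them. Liver is the main site of steroid hormone clearance, and many of its steroid enzymes differ between male and female rodents, under the control of the pattern of growth hormone release. In mouse liver, Hsd3b5 encodes a male-predominant reductase of the 3-ketosteroid dihydrotestosterone, whereas Hsd3b2 and Hsd3b3 encode dehydrogenase-isomerase forms. KEAP1, deleted here, marks the transcription factor NRF2 for degradation.

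The Hsd3b genes share a cluster on mouse chromosome 3. In the RefSeq genes of assembly GRCm38.p6, Hsd3b5 is followed by 2 pseudogenes and then by Hsd3b2, Hsd3b3 and Hsd3b6 next to each other. RefSeq promoters of 300 bases, 250 before and 50 after the start, were found for 9 of the 10 genes, Hsd17b2 being the exception. Those of the 3 Hsd3b genes are shown because Hsd3b5 and Hsd3b3 are alike in sequence within these windows, while their array differences were far apart. The windows lie on the minus strand of GRCm38.p6 at chr3:98645485-98645784 for Hsd3b5, chr3:98762361-98762660 for Hsd3b3 and chr3:98724494-98724793 for Hsd3b2. Capitals mark runs of at least 10 aligned identical bases, shared with Hsd3b3 in the Hsd3b5 line and with Hsd3b5 in the other lines.
Hsd3b5: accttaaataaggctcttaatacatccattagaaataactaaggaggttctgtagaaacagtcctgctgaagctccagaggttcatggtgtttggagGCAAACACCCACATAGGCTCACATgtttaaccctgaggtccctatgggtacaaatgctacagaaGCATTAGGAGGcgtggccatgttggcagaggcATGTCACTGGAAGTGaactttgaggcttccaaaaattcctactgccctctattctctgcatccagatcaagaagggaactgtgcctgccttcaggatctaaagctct
Hsd3b3: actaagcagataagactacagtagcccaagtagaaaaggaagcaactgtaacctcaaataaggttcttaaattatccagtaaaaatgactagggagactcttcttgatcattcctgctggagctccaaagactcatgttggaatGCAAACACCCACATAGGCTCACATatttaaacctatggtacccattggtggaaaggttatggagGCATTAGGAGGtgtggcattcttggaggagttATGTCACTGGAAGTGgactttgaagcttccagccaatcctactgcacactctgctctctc
Hsd3b2: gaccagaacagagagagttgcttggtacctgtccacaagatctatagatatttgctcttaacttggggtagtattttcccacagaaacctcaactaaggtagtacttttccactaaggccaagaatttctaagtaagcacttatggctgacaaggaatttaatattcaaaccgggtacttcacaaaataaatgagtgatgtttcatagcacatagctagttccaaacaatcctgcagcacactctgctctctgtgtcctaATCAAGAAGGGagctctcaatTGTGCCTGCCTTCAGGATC

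A local alignment joined 252 columns of the Hsd3b5 and Hsd3b3 windows, of which 193 were identical (76.6%), with a longest run of 24 bases. With Hsd3b2 only 81 columns aligned, with 60 identical and a longest run of 19 bases, at the end of the Hsd3b2 window. The runs in capitals in Hsd3b2 all lie after its start. Hsd3b3 has a second RefSeq start, whose window aligned to that of Hsd3b5 at 191 of 252 columns. The windows of Hsd3b6 and Hsd3b1 shared no run of 10 bases with that of Hsd3b5. Both the Hsd3b5 and the Hsd3b3 windows hold the letters CAAAGTNCA, a motif of the HNF4 type, on the reverse strand, at positions 207 and 254 counted from 1 at the 5′ end of each printed line. The matched stretch reads TGAACTTTG in Hsd3b5 and TGGACTTTG in Hsd3b3. The match lies before the start in Hsd3b5 but after it in Hsd3b3, so the like stretches are shifted relative to the annotated starts. The HNF4-type motif occurs, on either strand, in 1.41% of the 32851 promoters of this length, and in none of the other listed genes with a promoter entry. The core of the antioxidant response element, TGACNNNGC on either strand, was matched in the windows of Hsd11b1 and Hsd17b12 and in 12.4% of all promoters. The STAT5-type motif TTCNNNGAA was matched in none of the listed genes and in 8.3% of all promoters. The motifs were chosen after the sequences had been seen, they do not overlap in these windows, and a match describes letters only.

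The deposited values are linear array intensity per probe set, already scaled by the authors so that each array has the same trimmed mean of 500.0. Differences below are on log2(signal + 16), knockout minus control, from limma fitted over the 27022 probe sets whose mean signal was at or above the 40th percentile. Of the 16 member probe sets 15 were above that minimum. In the whole fit 415 probe sets, or 1.54%, had an adjusted p under 0.05 (limma, Benjamini-Hochberg), 220 higher and 195 lower. Leaving out 1 mouse lowered that count, to 150 for knockout 3, 296 for knockout 4, 275 for knockout 5, 216 for control 1, 218 for control 2 and 245 for control 3. Keap1 itself was lower in the knockouts, with signals of 326, 151 and 214 in knockouts 3, 4 and 5 and of 786, 843 and 699.8 in the 3 controls (log2 difference -1.74, limma adjusted p = 0.0102), a call lost without the variance trend (0.0586) and by a test with unequal variances per probe set (0.461). These signals are of the brightest Keap1 probe set, and the difference was -1.23 for the mean over probe sets. The position of the probe sets relative to the deleted part is not known here, which limits Keap1 as a check of the labels.

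The marker genes of hepatocytes were bright, with Alb between 22569 and 28702 on all 6 arrays, apart from Ass1, whose probe set gave 531 to 1647. Ass1 and Fgb had a lower mean in the knockouts, at -0.50 and -0.03, with overlap. The summed signal of 8 hepatocyte markers was 208350 to 231005 in the knockouts and 189104 to 207497 in the controls, and 5 of the 8 did not overlap between the groups, all of them higher in the knockouts, where 9.1% of all probe sets tested were higher on every knockout array. The sums of the 5 Kupffer cell, 4 stellate cell and 4 cholangiocyte markers overlapped between the groups, at 8260 to 11219.5, 7048 to 8002.5 and 251.5 to 500.4 in the knockouts and 5567 to 9789, 6889 to 7648 and 293.9 to 1287 in the controls. The sum of 3 lymphocyte markers overlapped too, at 619.8 to 834.2 in the knockouts and 589 to 709.8 in the controls. The sum of 4 endothelial markers did not, at 4282 to 4424 in the knockouts and 3834 to 3963 in the controls. Of the 4, Lyve1 alone did not overlap, at 705 to 1394 in the knockouts and 238 to 582 in the controls. The lymphocyte markers Cd3e (70.5 to 158.1 in the knockouts, 49.1 to 60.6 in the controls) and Cd79a (104.5 to 114.7, 84.1 to 103.5) did not overlap. Nor did the Kupffer cell marker Marco, at 387 to 770 in the knockouts and 98.6 to 298 in the controls. Cd3e was under the signal minimum, and the other lymphocyte and Kupffer cell markers overlapped. Of 5 genes of steroid-producing glands, Star, Cyp11a1, Cyp11b1, Cyp21a1 and Nr5a1, no signal exceeded 406, and their sum was 501.2 to 603.3 in the knockouts and 605.8 to 1108 in the controls, with Star the single gene of the 5 whose groups did not overlap. In these whole livers, fewer cells of a type and less RNA per cell cannot be told apart, and the part of these markers in the results below was not tested.

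Hsd3b5 stood apart from its relatives. Its signal was 487, 119 and 985 in knockouts 3, 4 and 5, and 8503, 9223 and 4825 in controls 1, 2 and 3. The highest knockout lay far below the lowest control, so the groups did not overlap. Knockout livers averaged 530 ± 434 and control livers 7517 ± 2359 (SD over 3 mice each). On the log2 scale the difference was -4.15, with a standard error of 0.60 and a 95% interval from -5.51 to -2.79, or 17.8-fold lower in the knockouts. Error and interval come from the limma fit, which draws each variance toward that of probe sets of like signal. The SD of the mice themselves was 1.47 among the knockouts and 0.51 among the controls. Their own spread alone would give a larger error and a wider interval. No other of the 27022 probe sets had a lower difference, and Hsd3b5 was the lowest in every alternative run except that without knockout 4, where it was second. Runs that change only the variance model or the test cannot alter that rank. Without knockout 4, the mouse with the lowest signal, it was 10.2-fold lower, and without knockout 5 it was 27.8-fold lower. Leaving out any other single mouse gave between 15.7-fold and 21.7-fold.

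**Figure D1:**
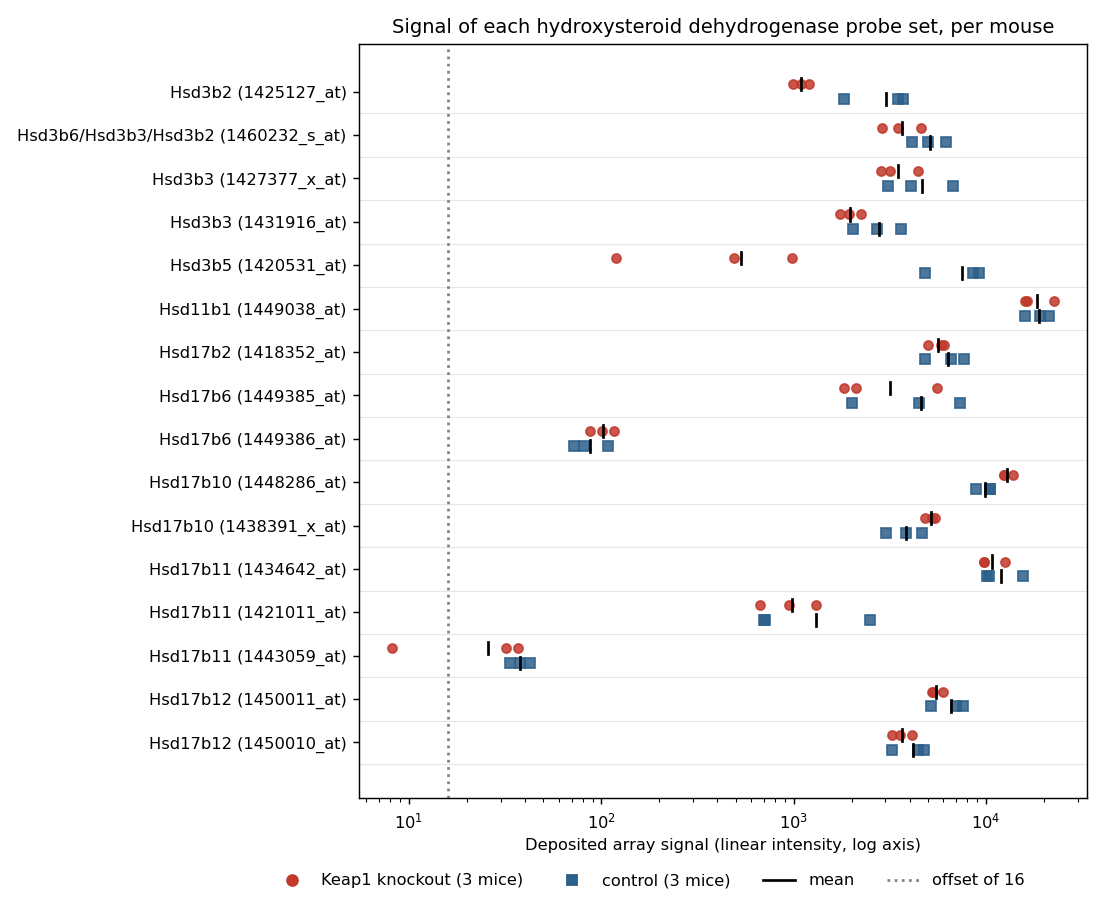
Array signal of the 16 probe sets (x axis, linear intensity on a log axis) for the 3 Keap1 knockouts (circles) and the 3 controls (squares), with the group means as black ticks and the offset of 16 as a dotted line. Hsd3b5 is the row where the groups are farthest apart, with knockouts at 119 to 985 and controls at 4825 to 9223; levels of different probe sets cannot be compared with each other.

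Hsd3b2 was the other listed gene whose knockouts all lay below the controls. Hsd3b2 is a form that turns steroid precursors into active ketosteroids. The signal of its own probe set was 1196, 993 and 1085 in knockouts 3, 4 and 5, and 3496, 1831 and 3702 in controls 1, 2 and 3. The knockouts lay close together and the controls were spread, with control 2 nearest to the knockouts. The log2 difference was -1.39 (standard error 0.24, 95% interval -1.93 to -0.85), or 2.62-fold lower in the knockouts, and 3.27-fold without control 2. Among the controls the mice ranked differently for Hsd3b2 and Hsd3b5: control 2 had the highest Hsd3b5 signal of all 6 mice and the lowest Hsd3b2 signal of the 3 controls.

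Hsd3b3, the dehydrogenase-isomerase of mouse liver and kidney, differed less and its groups overlapped. Its probe set without a suffix had signals of 1744, 1929 and 2238 in knockouts 3, 4 and 5, and 2031, 3598 and 2709 in controls 1, 2 and 3. The log2 difference was -0.46 (95% interval -0.90 to -0.03). A second probe set, of the _x_at type, gave 2839, 3179 and 4438 in the knockouts and 3105, 6762 and 4066 in the controls. Its difference was -0.36 (95% interval -0.96 to 0.24), and -0.05 without control 2, the mouse with the highest signal in all 3 probe sets that detect Hsd3b3. A probe set shared by Hsd3b6, Hsd3b3 and Hsd3b2 gave 2883, 3483 and 4583 in the knockouts and 4101, 6215 and 5017 in the controls, a difference of -0.49. Within the cluster the differences thus ran from -4.15 for Hsd3b5 through -1.39 for Hsd3b2 to between -0.49 and -0.36 for the probe sets that detect Hsd3b3. The Hsd3b genes are near copies of each other, so cross-hybridisation between them, above all on the probe sets ending in _s_at or _x_at, cannot be told apart from their own signal.

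Hsd11b1 encodes the enzyme that regenerates active glucocorticoid in liver. Its signal was 16328, 22636 and 15946 in knockouts 3, 4 and 5, and 21183, 19169 and 15949 in controls 1, 2 and 3. The groups overlapped over nearly their whole range. The log2 difference was -0.05 with a 95% interval from -0.40 to 0.30, and its sign changed with scaling, from -0.21 to 0.05 over the alternatives. Changes within that interval could not be told from none with 3 mice per group.

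Hsd17b2, which oxidises estradiol and testosterone to weaker ketones, had signals of 6020, 4980 and 5845 in the knockouts and of 7703, 4826 and 6583 in the controls. The lowest and the highest mouse were both controls. The difference was -0.16 (95% interval -0.53 to 0.21). Hsd17b12 acts mainly as a ketoacyl-CoA reductase in fatty acid elongation. Its brighter probe set gave 5276, 5953 and 5235 in the knockouts and 6986, 7621 and 5156 in the controls, a difference of -0.25 (95% interval -0.57 to 0.08), and the other gave -0.17. Control 3 had the lowest signal of the 6 mice in both probe sets, so the groups overlapped.

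Hsd17b6, which oxidises androstanediols and also acts on retinoids, varied widely between mice of the same group. Its brighter probe set gave 1832, 5584 and 2099 in knockouts 3, 4 and 5, and 4505, 7313 and 2018 in controls 1, 2 and 3. Knockout 4 was the high one among the knockouts and control 3 the low one among the controls. The difference was -0.54 with a 95% interval from -1.66 to 0.58, and it was -1.04 without knockout 4, -1.04 without control 3 and -0.12 without control 2. A dim probe set of the gene, at 72.3 to 116.9 on all arrays, differed by 0.20 in the other direction and did not follow the brighter probe set: knockout 4 was its lowest knockout.

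Hsd17b11, a dehydrogenase of lipid droplets that acts on androstanediol, gave 9811, 12494 and 9735 in the knockouts and 10057, 15548 and 10328 in the controls in its brightest probe set. Control 2 was the highest and knockout 4 the next, and the other 4 mice lay close together. The difference was -0.15 (95% interval -0.54 to 0.25) and turned to 0.06 without control 2. A second probe set gave 949, 670.1 and 1307 in the knockouts and 704, 2489 and 709 in the controls, with a difference of -0.19 that turned to 0.41 without control 2 and to 0.05 without knockout 4. The third, at 8.2 to 42.6, was under the signal minimum.

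Hsd17b10 was the listed gene with higher values in the knockouts. It encodes a mitochondrial dehydrogenase of isoleucine breakdown that is also a subunit of mitochondrial ribonuclease P. Its brighter probe set gave 13770, 12348 and 12461 in knockouts 3, 4 and 5, and 8844, 10453 and 10448.5 in controls 1, 2 and 3. The lowest knockout was above the highest control. The difference was 0.38 (standard error 0.10, 95% interval 0.15 to 0.61), or 1.30-fold, and it was 0.21 after scaling on the hybridisation controls. The second probe set gave 5207, 4790 and 5449 in the knockouts and 3006, 3842 and 4632 in the controls, again without overlap, and differed by 0.45, or 1.36-fold. Over the alternatives the 2 differences ranged from 0.21 to 0.47 and from 0.28 to 0.59.

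**Figure D2:**
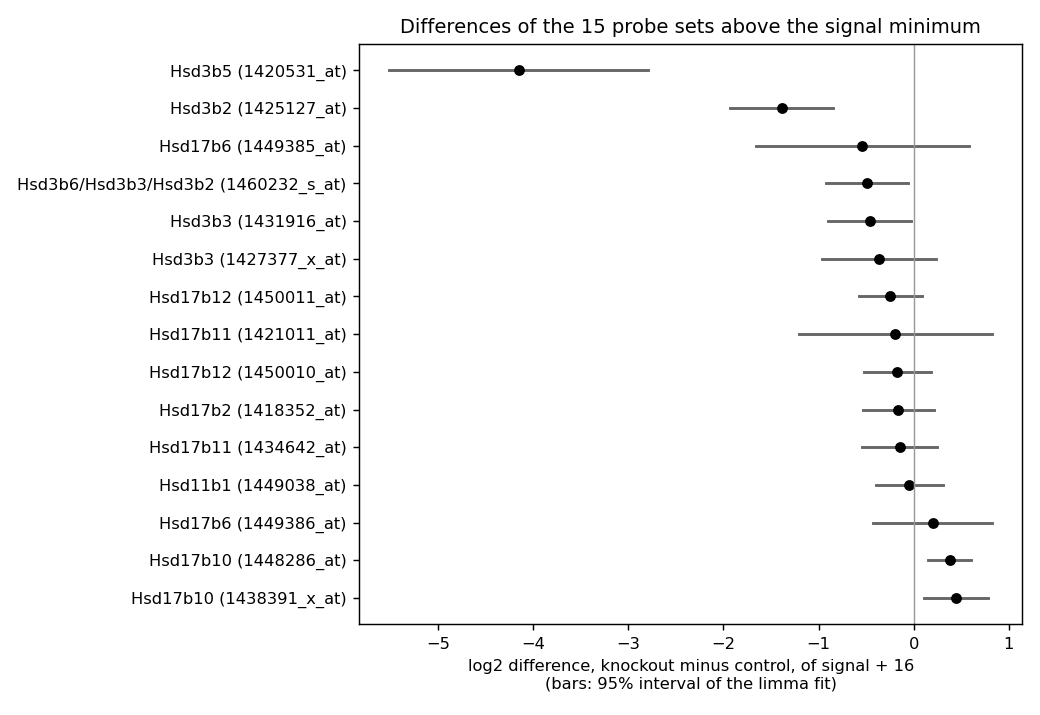
Log2 difference of signal + 16, knockout minus control, for the 15 probe sets above the signal minimum (x axis), with 95% intervals of the limma fit as bars. Hsd3b5 at -4.15 and Hsd3b2 at -1.39 lie left of the others, which run from -0.54 to 0.45.

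Over the 15 probe sets, 12 had a lower and 3 a higher value in the knockouts, with a median of -0.19, where 55.6% of all probe sets tested were lower and their median was -0.04. Among the alternatives that kept 15 probe sets, the number lower was 10 to 12. Knockouts below the controls on every array were found for 2 member probe sets and for 11.4% of all, and knockouts above on every array for 2 and for 9.1% of all. The rule used that contrast, so nothing is read from these counts.

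The listed genes differed in how much mice of the same group varied. The within-group SD of log2 signal was 1.10 for Hsd3b5, above that of 99.4% of the 27022 probe sets, whose median SD was 0.22. It was 1.47 among the knockouts, whose highest signal was 8.27 times the lowest, and 0.51 among the controls, at 1.91 times. The brighter Hsd17b6 probe set had an SD of 0.90 (98.4% of probe sets lower), with a highest signal 3.05 times the lowest among the knockouts and 3.62 times among the controls. The second Hsd17b11 probe set had an SD of 0.81 (97.4%), through control 2. Hsd17b10 was at the other end, with an SD of 0.12 in its brighter probe set (15.5%).

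**Figure D3:**
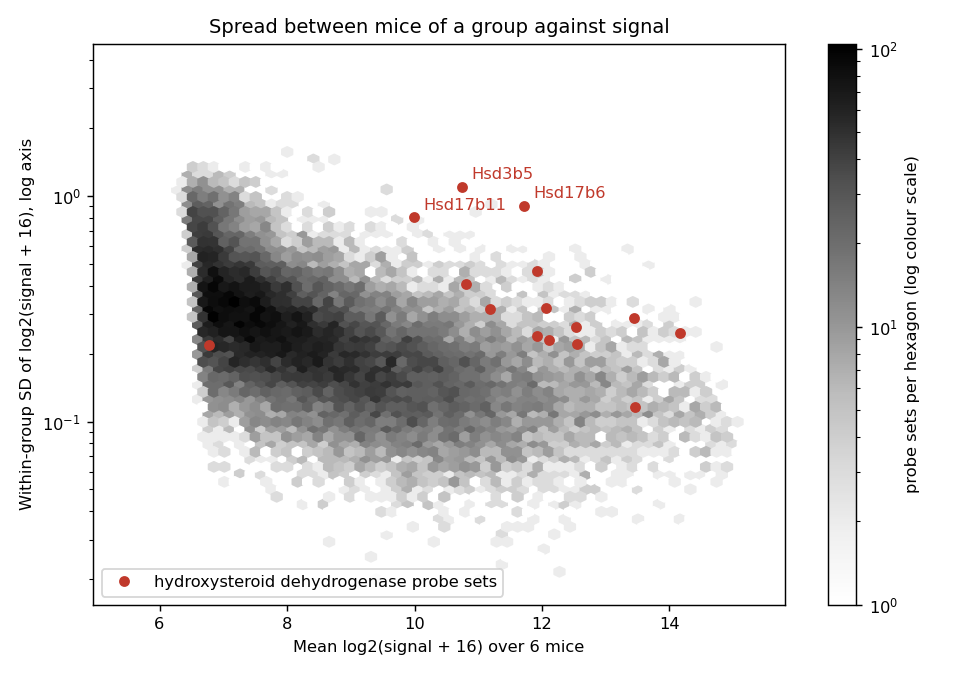
Within-group SD of log2(signal + 16) (y axis, log axis) against its mean over 6 mice (x axis) for all 27022 probe sets, as hexagons shaded by number, with the 15 member probe sets as points. Hsd3b5 (1.10), Hsd17b6 (0.90) and Hsd17b11 (0.81) lie above most probe sets of any signal.

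The 5 genes whose log2 signal followed Hsd3b5 most closely over the 6 mice were Tmx2, Ifi27, Serpina4-ps1, Abcb10 and Scai, with Pearson coefficients of 0.989, 0.988, 0.987, 0.987 and 0.987. They were picked as the highest of all probe sets with 1 gene symbol, the 6 values fall into the 2 groups, and no test is attached. With the group means taken out, the coefficients were 0.939, 0.967, 0.925, 0.917 and 0.934. In each of the 5, knockout 4 was the lowest mouse and knockout 5 the highest of the knockouts, as for Hsd3b5. Their differences were smaller than that of Hsd3b5. Ifi27, an interferon-inducible gene, had signals of 2696, 2155 and 3063 in knockouts 3, 4 and 5, and 3722, 4055 and 3690.2 in the 3 controls. Serpina4-ps1, a pseudogene of the serpin family, had 690.4, 506.5 and 865 in the knockouts and 1771, 1614 and 1680.2 in the controls, a difference of -1.31. The differences of Tmx2, a thioredoxin-related membrane protein, Abcb10, a mitochondrial transporter, and Scai were -0.54, -0.58 and -1.11.

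**Figure D4:**
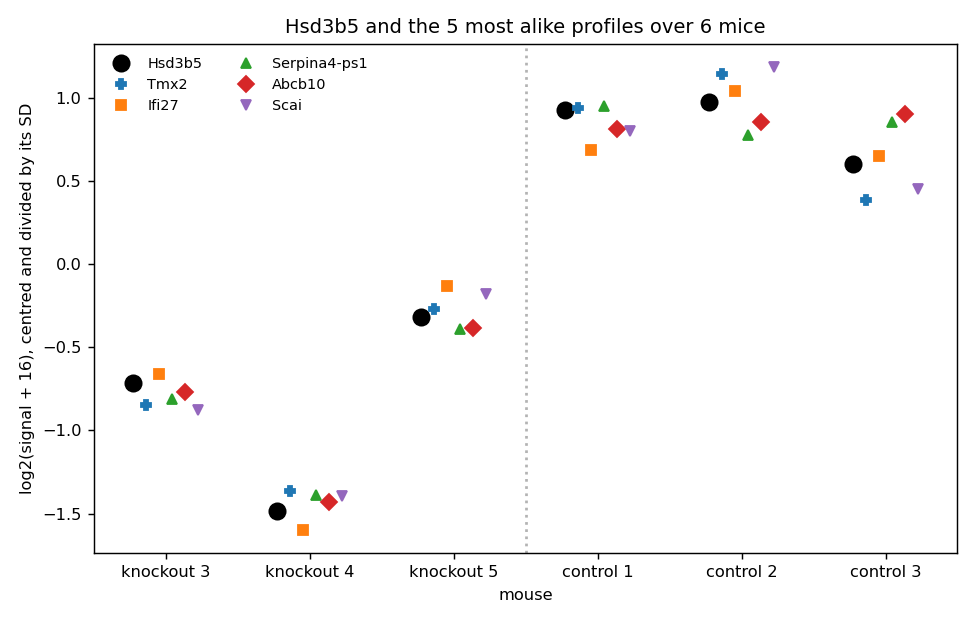
Log2(signal + 16) of Hsd3b5 (black circles) and the 5 genes most like it, each centred on its mean over 6 mice and divided by its SD (y axis), for each mouse (x axis, knockouts left of the dotted line, controls right). All 6 genes have their lowest value in knockout 4, and all their controls lie above their knockouts; the genes were picked for this likeness.

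Other genes of steroid metabolism were taken from a list of 45 names, of which 36 had a probe set of their own and 29 were above the signal minimum. Among these 29, 1 rose and 0 fell (limma, adjusted p over all probe sets), beside 0.814% called higher and 0.722% called lower among all probe sets. Of the 29, 15 lay above and 14 below the controls, with a median of 0.02, beside a median of -0.04 over all probe sets. The gene that rose was Akr1c19, an aldo-keto reductase of the family that acts on steroid ketones. Its signal was 9086, 10980.2 and 8849.5 in knockouts 3, 4 and 5, and 4100.0, 5344 and 4050.5 in controls 1, 2 and 3. The log2 difference was 1.10 (standard error 0.14, adjusted p = 0.005985), and the call was lost only without the variance trend (0.0600) and by a test with unequal variances per probe set (0.3997) among 21 alternatives. Sult1e1, the estrogen sulfotransferase, had 152.5, 46.4 and 245.4 in the knockouts and 15.9, 12.4 and 63.2 in the controls, a difference of 1.75 without a call (limma adjusted p = 0.229). With 2 controls under the offset of 16 that size depends on it, from 1.08 at an offset of 64 to 2.32 at an offset of 1. Star, a cholesterol carrier of steroid-producing glands, had 134.9, 124.1 and 67.4 in the knockouts and 227.7, 221.4 and 405.6 in the controls, without overlap and without a call (difference -1.26, limma adjusted p = 0.0971). It was called only after scaling on the hybridisation controls (0.0378).

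**Figure D5:**
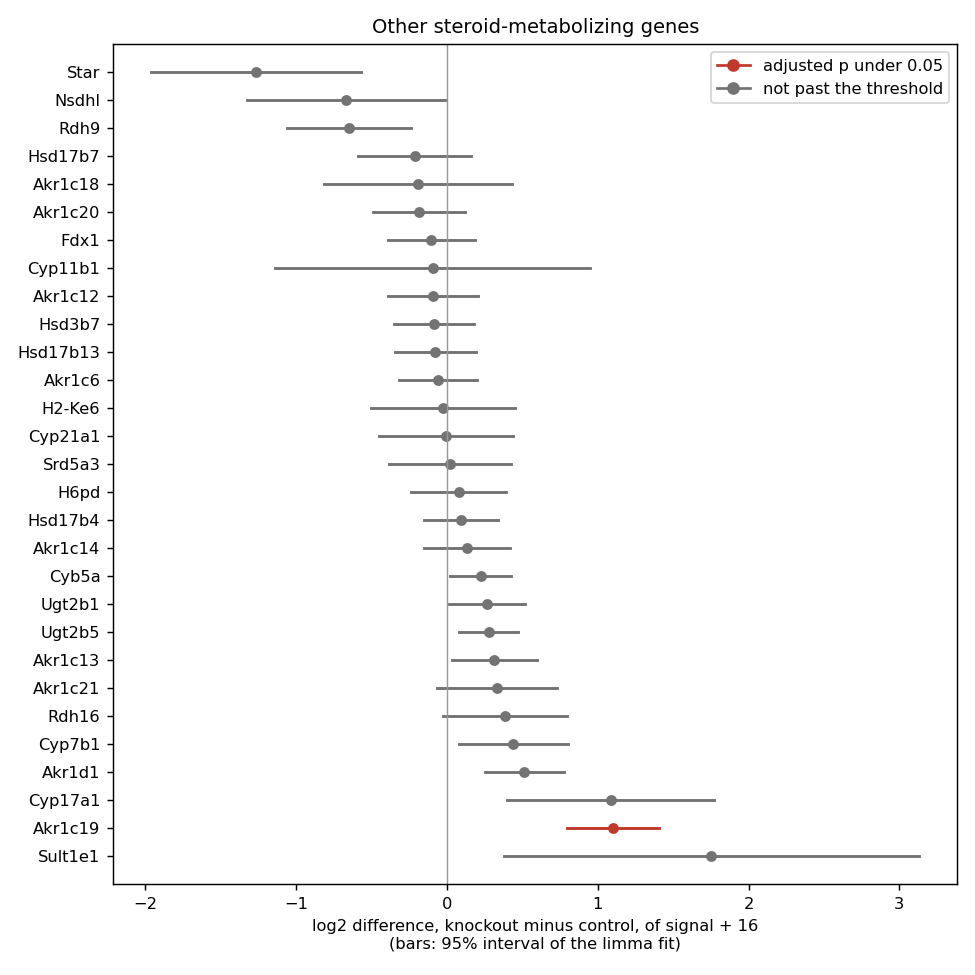
Log2 difference of signal + 16, knockout minus control, for the 29 tested genes of the steroid metabolism list (x axis), with 95% intervals of the limma fit as bars and the gene past the threshold in red. Akr1c19 at 1.10 is the single gene called, and most intervals cross 0.

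Closer relatives of the listed genes were not called. Hsd3b7, which acts in bile acid synthesis, had 14840, 13774 and 12834 in the knockouts and 16758, 12709 and 14710.4 in the controls. Hsd17b13, a lipid droplet relative of Hsd17b11, had 8052, 9823 and 9138.5 in the knockouts and 8863, 10920.1 and 8750.1 in the controls. The differences of Hsd3b7, Hsd17b13, Hsd17b7, Hsd17b4 and Srd5a3 were -0.09, -0.08, -0.21, 0.10 and 0.02. Some other genes of the steroid metabolism list had groups without overlap and no call. Nsdhl and Rdh9 were lower, at -0.67 and -0.65. Akr1d1, Akr1c13, Ugt2b5 and Cyb5a were higher, at 0.52, 0.32, 0.28 and 0.23. Of all probe sets tested, 11.4% were lower and 9.1% higher on every knockout array. Nsdhl had 2879 in control 1 but 1155 and 1272 in controls 2 and 3. Hsd3b1, the form of steroid-producing glands, was at 13.1 to 84.6 in the knockouts and 13.2 to 20.2 in the controls and under the signal minimum. No test asked whether any of these genes differed from Hsd3b5.

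Hsd3b5 is a male-predominant gene, so other sex-biased liver genes are given beside it, from lists without the 10 genes. Of 15 male-biased genes tested 3 fell and 0 rose, beside 0.722% called lower and 0.814% called higher among all probe sets. Of the 15, 10 lay below and 5 above the controls, with a median of -0.65 against -0.04 over all probe sets. The 3 that fell were Slco1a1, a sinusoidal uptake carrier, Elovl3, a fatty acid elongase, and Susd4, a regulator of complement. Slco1a1 had 3556, 1905 and 3219 in knockouts 3, 4 and 5 and 9372, 8620.1 and 7252 in controls 1, 2 and 3 (difference -1.58, limma adjusted p = 0.00995). Its call was lost only without the variance trend (0.0739) and by the unequal-variance test (0.458). Elovl3 had 1383, 689 and 792 in the knockouts and 5417, 2422 and 3079 in the controls (difference -1.89, limma adjusted p = 0.0243). Susd4 had 472.5, 415 and 442.0 in the knockouts and 725, 761.5 and 1006 in the controls (difference -0.87, limma adjusted p = 0.0272). The Elovl3 call was lost without knockout 4, knockout 5, control 1 or control 3 (adjusted p = 0.0662, 0.0756, 0.0510 and 0.0675), and also with robust eBayes (0.0617), without the variance trend (0.113) and by the unequal-variance test (0.456). That of Susd4 was lost without any single mouse (0.0505 to 0.0886), for the mean over probe sets (0.127), without the variance trend (0.0983) and by the unequal-variance test (0.458). In all 3 genes, picked by their calls, every knockout lay below every control, and knockout 4 was the lowest knockout, as for Hsd3b5. Knockout 4 also had the lowest median signal of all arrays, 114.4, and the part of this in that order was not tested.

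Several male-biased genes were not called. Cyp4a12a, an arachidonate hydroxylase, differed by -0.10, Cyp2d9, a male-predominant steroid hydroxylase, by 0.09, and Cyp7b1, which hydroxylates dehydroepiandrosterone and oxysterols, by 0.44, all without a call (limma adjusted p = 0.814, 0.709 and 0.250). Ugt2b38, Cyp2u1, C6, Moxd1, C8b and Nudt7 differed by -1.18, -0.97, -0.91, -0.72, -0.65 and -0.64, also without a call. Every knockout lay below every control for Cyp2u1, C6, C8b and Nudt7, as for 11.4% of all probe sets tested. Ugt2b1, Gstp1 and Mup3 differed by 0.27, 0.23 and 0.22 without a call. For Gstp1 and Mup3 every knockout lay above every control, as for 9.1% of all. Of 8 female-biased genes tested 0 passed at an adjusted p under 0.05 in limma, beside 1.54% of all probe sets. Their median was 0.36, with 6 above and 2 below. Under the signal minimum, and so not tested, were Cyp3a44 and Sult3a1. Cyp3a44 was lower in the knockouts, at 8.6 to 10.1 against 57.3 to 97.1 in the controls. Sult3a1 had a higher mean, at 6.4 to 41.9 against 2.9 to 16.3, with overlap. Cyp2b9, a female-predominant cytochrome P450, had 331, 8767 and 479 in the knockouts and 135, 195 and 139 in the controls, a difference of 2.75 without a call (limma adjusted p = 0.245). Knockout 4, which had the lowest Hsd3b5 signal, was the mouse with the high Cyp2b9 signal. Without it the difference was 1.28. Abcd2 and Prom1 differed by -1.23 and -1.16 without a call, Prom1 through the 645 of control 2. Abcd2 lay between -1.73 without knockout 4 and -0.74 without knockout 5.

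Among receptors and regulators of steroid and growth hormone action, 1 of 18 tested genes fell and 0 rose, with a median of -0.09. Among all probe sets 0.722% were called lower and 0.814% higher. Ghr, the growth hormone receptor, had 10293, 11181 and 9706 in the knockouts and 17052, 16577 and 13491 in the controls (difference -0.59, limma adjusted p = 0.0404). That call was lost without any single mouse but control 3 (adjusted p = 0.0680 to 0.148) and after median centring (0.290), without the filter (0.0906), without the variance trend (0.174), for the mean over probe sets (0.126) and by the unequal-variance test (0.456). Onecut1 and Bcl6, transcription factors that take part in the sex bias of mouse liver, differed by -0.64 and -0.58 without a call and overlapped between the groups. Onecut1 differed by -0.22 without control 3, and Bcl6 by -0.01 without knockout 5. Of the 18 genes, 7 lay above and 11 below the controls. Igf1, Cish, Socs2, Stat5a and Stat5b differed by -0.11, 0.02, 0.13, -0.48 and -0.14, with overlap and without a call. Nr1i3 and Hnf4a were higher on every knockout array, at 0.48 and 0.41, and Nr3c2 was lower on every one, at -0.41, all without a call. Of all probe sets tested, 9.1% were higher and 11.4% lower on every knockout array.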

How the data were processed

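Liver RNA of 3 knockout and 3 control mice was hybridised to single-colour Affymetrix arrays, per the labels' protocols, after T7-oligo(dT) priming and biotin labelling. The deposited values are linear intensity, 1 number per probe set and array; software and genome build: not given in the sources used here. Each array has a trimmed mean of 500.0 (lowest and highest 2% of probe sets left out), so a change in total RNA per cell would not be seen. Between 11.9% and 16.5% of values were under the offset of 16, which understates changes of dim genes. Probe sets were named from the platform annotation, and control probe sets (64) were left out. Probe sets were fitted with limma 3.58.1 under R 4.3.3, with lmFit and a trended two-sided eBayes test, with Benjamini-Hochberg adjustment and a threshold of 0.05; a gene of a list is its brightest probe set with 1 symbol. "Rose" and "fell" mean past that threshold. The steps were tested on simulated arrays. Promoters came from RefSeq, aligned with Biopython 1.88.

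Nothing in the labels says that mice were processed separately beyond 1 mouse per array, and the number of arrays limits the precision: an exact permutation test of 3 against 3 cannot go below p = 0.1. Members, gene lists and tests were chosen with earlier results of these data known. Named genes were all members, each gene of another list past the threshold (or the 3 with the largest difference where fewer than 3 passed), Keap1, and the 5 probe sets most correlated with Hsd3b5. Relatives, sex-biased genes, receptors and regulators without a call were added after their values were seen, as was the choice of motifs. The rule also foresaw proteins, for which no table was used here. Alternatives were other offsets, filters, normalizations, variance models, feature levels, an unequal-variance (Welch) test per probe set and leaving out each array.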

Additional observations from a re-analysis of the deposited data

How the results depend on the processing

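No paired analysis was possible because the groups share only the replicate number 3. The log2 difference of Hsd3b5 lay between -4.80 and -3.35 without single mice and between -4.31 and -3.95 under the other 15 alternatives, within the spread between mice. Of those 15, only the offsets, the normalizations and the array weights could move it. Hsd3b5 has 1 probe set, so other filters, eBayes settings, tests and feature levels leave the difference as it is. The number of lower member probe sets was 10 to 12 without single mice. The count of probe sets called, 415, was 271 without the filter, 109 without the variance trend, 263 with 1 probe set per gene, 231 for the mean over probe sets (both over fewer features), 0 by the unequal-variance test (2542 at an unadjusted p under 0.05) and 150 to 296 without single mice; it was 580 with array weights. Scaling on the hybridisation controls moved the median of all probe sets to -0.19 and the calls to 135 higher and 417 lower; median centring gave 191 and 91, while the split was 220 and 195. The other steroid enzymes called, 1, were 2 after scaling on the hybridisation controls, 0 without the variance trend, 0 by the unequal-variance test and 1 without any single mouse. The sex-biased genes called, 3, were 6 after that scaling, 0 without the trend, 0 by the unequal-variance test and 1 to 2 without single mice. The receptors and regulators called, 1, were 0 without the filter, after median centring, without the trend, for the mean over probe sets and by the unequal-variance test, 2 with array weights, and 0 to 1 without single mice. Apart from fewer features or arrays, the cause was not tested.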
